A study of Homo sapiens with 5 samples.

Results

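The GRCh38 human assembly holds many sequences besides the chromosomes, and the H3K9me3 peaks on them are described here. A peak was a member when its sequence was none of chromosomes 1 to 22, X, Y or the mitochondrial genome. By this rule 805 of 13455 peaks (5.98%) belonged to the KD list and 1699 of 26364 (6.44%) to the EV list. A further list, whose name gives no genotype, contained 853 such peaks among 15215 (5.61%). The peaks lay on 314 sequences, of which 201 carried a KD peak, 298 an EV peak and 142 a peak of the list without a genotype. The working name of the set, unplaced and unlocalized sequences, held only in part. Unlocalized and unplaced sequences carried 386 of the KD peaks (48%) and 607 of the EV peaks (35.7%). The other peaks, 419 in KD (52%) and 1092 in EV (64.3%), lay on alternate loci and patches. The set is therefore called sequences other than chromosomes.

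The study measured trimethylation of histone H3 lysine 9 (H3K9me3) by chromatin immunoprecipitation and sequencing in HEK293T cells, a line derived from human embryonic kidney. The KD cells carry a knockdown that the series design names KCNQ1OT1_K, and EV, read here as empty vector, is the control. The labels do not give the knockdown method or say whether the KD cells are a clone. The labels list 5 samples, namely H3K9me3 libraries of KD, EV and WT cells and input libraries of EV and WT cells, and none is an input of KD cells. Each group has 1 library, so no difference below has a replicate check and no test was made. The list without a genotype was not assigned to WT, and only its own values and its overlap with the other lists are given.

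H3K9me3 is placed by histone methyltransferases, is bound by HP1 proteins, and marks heterochromatin, including the satellite repeats around centromeres and silent copies of the ribosomal RNA genes. Assemblies collect much sequence of this kind on pieces whose place is not settled. Unlocalized sequences belong to a known chromosome at an unknown position, and unplaced sequences have no known chromosome. Alternate loci give other haplotypes of regions that the chromosomes also hold, and patches are later corrections or additions. A read from such a region can match both the chromosome and its other version, and the labels do not say how such reads were handled.

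On sequences other than chromosomes the KD list held fewer peaks than the EV list and covered less sequence. The 805 KD peaks covered 1523 kb and the 1699 EV peaks 3346 kb. Relative to EV, KD had 0.474 of the peaks (exact 95% interval 0.435 to 0.516) and 0.455 of the covered length. The mean fold enrichment, a ratio over background computed by the authors' peak caller, was 3.82 in the KD list and 3.44 in the EV list. On chromosomes these ratios were 0.513 for peaks (0.502 to 0.524) and 0.408 for length. The interval of the peak ratio on the other sequences includes the value on chromosomes. The lists give no read counts, so depth is unknown, and the part of depth in these ratios was not tested. With the EV list limited to its strongest 13455 peaks, the peak ratio was 0.893 on these sequences and 1.01 on chromosomes, and the covered ratio was 0.65 and 0.563. The intervals here and below are exact Clopper-Pearson intervals and cover counting error only.

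Peaks on these sequences were of like width in both lists. The median width was 1099 bp in KD (interquartile range 615 to 2073) and 1177 bp in EV (721 to 1973). On chromosomes the medians were 1016 bp in KD and 1105 bp in EV. Peaks of at least 5 kb numbered 45 in KD (5.59%) and 106 in EV (6.24%). They held 33% of the covered bases of the members in KD and 33.2% in EV. On chromosomes such peaks held 23.6% of the covered bases in KD and 40.6% in EV. By kind the shares differed in opposite directions, with 33.6% in KD and 43.5% in EV on unlocalized and unplaced sequences, and 32.2% in KD and 22.8% in EV on alternate loci and patches. The members of the third list, that without a genotype, covered 1785 kb with a median width of 1195 bp.

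The kinds of sequence differed in how much of the EV list the KD list held. Unlocalized sequences had 212 KD and 325 EV peaks, a ratio of 0.652 (0.546 to 0.778). Unplaced sequences had 174 KD and 282 EV peaks, a ratio of 0.617 (0.508 to 0.748). Alternate loci had 308 KD and 826 EV peaks, a ratio of 0.373 (0.326 to 0.426). The interval of the alternate loci lay below those of the unlocalized and unplaced sequences and below the chromosomes. Patches had 111 KD and 266 EV peaks, a ratio of 0.417 (0.331 to 0.523), and that interval includes the value on chromosomes. These intervals are counting intervals of single libraries and the differences between kinds were not tested. They also count every peak as independent. Of the 826 EV peaks on alternate loci, 150 lay on 7 haplotypes of the major histocompatibility complex and 105 on 9 of the leukocyte receptor complex. Haplotypes of a region share sequence, so the interval of the alternate loci can be too narrow.

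**Figure D1:**
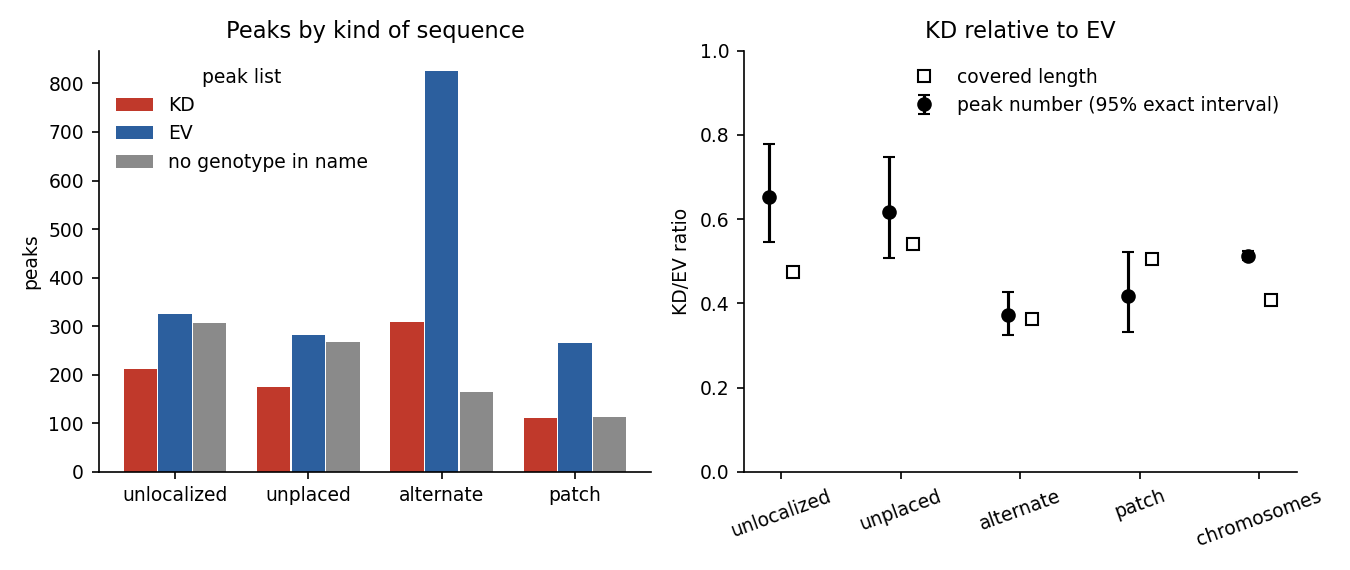
Left, number of peaks (y axis) on each kind of sequence other than chromosomes in the KD list (red), the EV list (blue) and the list without a genotype in its name (grey). Right, KD/EV ratio (y axis) of peak number (filled circles, bars are exact 95% intervals for counting error) and of covered length (open squares) for the same kinds and for chromosomes; alternate loci have the lowest peak ratio, 0.373.

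Covered length gave another order among the kinds. Unlocalized sequences were covered over 450.5 kb in KD and 949.7 kb in EV, a ratio of 0.474, with mean folds of 3.67 in KD and 3.3 in EV. Unplaced sequences were covered over 395 kb in KD and 731 kb in EV, a ratio of 0.54, with mean folds of 3.78 in KD and 3.4 in EV. Alternate loci were covered over 413 kb in KD and 1141 kb in EV, a ratio of 0.362, with mean folds of 3.85 in KD and 3.52 in EV. Alternate loci were thus lowest by both measures. They include the 7 haplotypes of the major histocompatibility complex, covered over 20.3 kb in KD and 136 kb in EV, a ratio of 0.15. The ratio of the alternate loci without these haplotypes was not computed. Patches were covered over 265 kb in KD and 524 kb in EV, a ratio of 0.505, with mean folds of 4.11 in KD and 3.41 in EV. The patch KZ208906.1, which carries the widest member peak, held 28.8% of the patch length in KD and 14.7% in EV. Without it the patches were covered over 188 kb in KD and 447 kb in EV, a ratio of 0.422, with mean folds of 4.13 in KD and 3.42 in EV. The third list had another order of peak numbers, with 306 peaks on unlocalized, 268 on unplaced, 165 on alternate and 114 on patch sequences.

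Most KD peaks had an EV partner, and fewer EV peaks had a KD partner. At a minimum overlap of 1 bp, 724 of 805 KD peaks (89.9%, 87.6 to 91.9) were overlapped by an EV peak, where the share over all sequences was 87.8%. Of the EV peaks, 644 of 1699 (37.9%, 35.6 to 40.3) were overlapped by a KD peak, where the share over all sequences was 37.7%. Both shares lay near their background. With a reciprocal overlap of at least 50% they were 51.1% of KD peaks and 24.2% of EV peaks, and with EV limited to its strongest 13455 peaks they were 74% and 57.8%. The kinds of sequence differed around it. On unlocalized and unplaced sequences 309 of 607 EV peaks (50.9%, 46.9 to 55) had a KD partner. On alternate loci and patches 335 of 1092 (30.7%, 28 to 33.5) had one.

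EV peaks with a KD partner were the stronger and wider ones. Their median −log10 p was 7.47, against 4.15 for EV peaks without a partner, and their median width was 1846 bp, against 928 bp. Among EV peaks with a −log10 p of 5 to 7, a KD partner was present for 60.9% (51.1 to 70.1) on unlocalized and unplaced sequences. In the same range it was present for 30.6% (24.5 to 37.2) on alternate loci and patches and for 46% (44.5 to 47.4) on chromosomes. The gap between the kinds was therefore also present among peaks of this strength. Under 3.5 the shares were 13.4% (7.33 to 21.8) on unlocalized and unplaced sequences, 8.52% (4.85 to 13.7) on alternate loci and patches and 5.32% on chromosomes. From 3.5 to 4 they were 16.3%, 13.7% and 12.2%. The gap was thus small among the weakest peaks. The median EV width was 1662 bp on unlocalized and unplaced sequences and 1004 bp on alternate loci and patches, and width was not held equal. Every one of the 60 EV peaks whose −log10 p reached 20 on unlocalized and unplaced sequences had a partner, as did the 38 on alternate loci and patches, where the share on chromosomes was 98.9%.

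**Figure D2:**
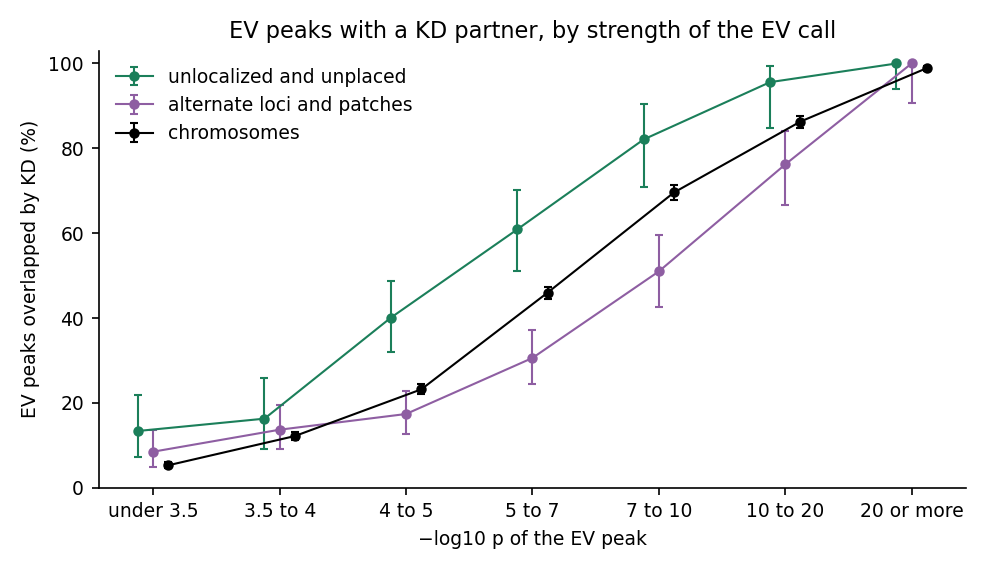
Share of EV peaks overlapped by a KD peak (y axis, %) by the −log10 p of the EV peak (x axis, bins), for unlocalized and unplaced sequences (green), alternate loci and patches (purple) and chromosomes (black), with exact 95% intervals. From 5 to 20 on the −log10 p axis the green points lie highest and the purple points lowest.

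The bases shared by both lists came to 1352 kb, which was 88.8% of the KD bases and 40.4% of the EV bases on these sequences. Peaks of the third list overlapped 47.1% of the KD peaks, where its share over all sequences was 45.6%. They overlapped 26% of the EV peaks, where its share over all sequences was 24.8%. On unlocalized and unplaced sequences these shares were 65.5% of KD peaks and 50.1% of EV peaks. On alternate loci and patches they were 30.1% of KD peaks and 12.5% of EV peaks. Peaks of the third list thus overlapped a larger share of KD and EV peaks on unlocalized and unplaced sequences than on alternate loci and patches. That list had 574 peaks on the former and 279 on the latter. Of its own 853 peaks, 41.9% were overlapped by a KD peak, where the share over all sequences was 36%. An EV peak overlapped 57.1% of them, where the share over all sequences was 50.6%. In this direction the kinds lay closer together. A KD peak overlapped 43% of them on unlocalized and unplaced sequences and 39.4% on alternate loci and patches. For an EV peak these shares were 58.7% and 53.8%.

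Sequence by sequence, KD coverage was lower almost throughout. Of the 302 sequences with a peak in KD or EV, 197 had both, 101 had only EV peaks and 4 had only KD peaks. More bases were covered in KD than in EV on 22 sequences (7.28%), where the share over all sequences and chromosomes was 6.75% and none of the 24 chromosomes was among them. Among the 55 sequences with at least 10 EV peaks none was covered more in KD. Their ratio of KD to EV covered length ran between 0.0843 and 0.803 with a median of 0.308. The EV list itself set this group, which favours low ratios. The group leaves out GL000220.1, with 5 EV peaks and a ratio of 1.3, and KI270733.1, with 9 EV peaks and a ratio of 1.52. On the 24 chromosomes the ratio ran between 0.276 and 0.59 with a median of 0.431. The ratios of the 55 sequences thus lay over a wider range on both sides.

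**Figure D3:**
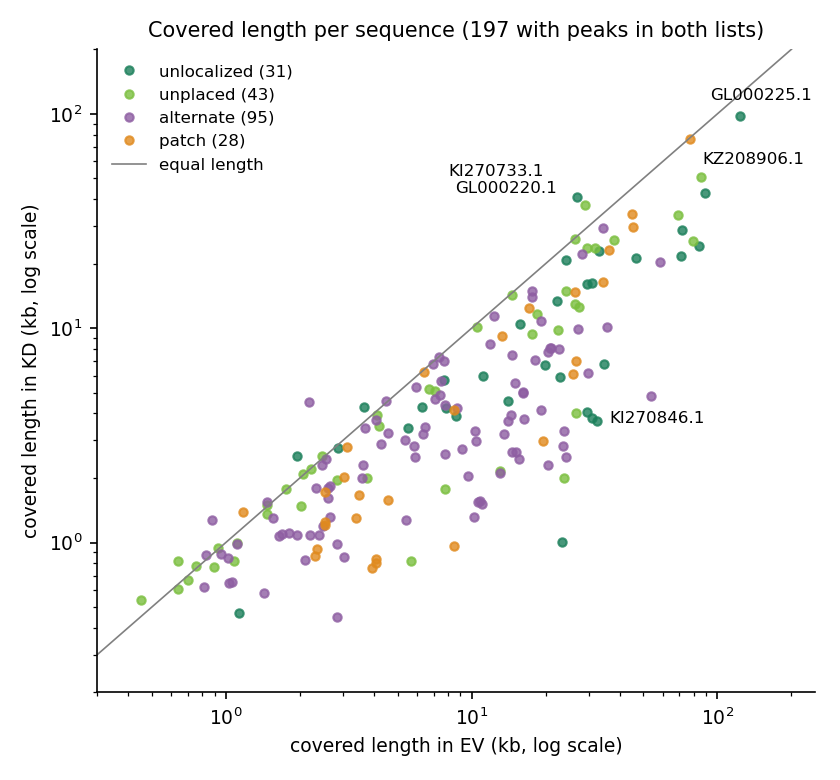
Covered length of each sequence in the KD list (y axis, kb, log scale) and in the EV list (x axis, kb, log scale) for the 197 sequences with peaks in both, coloured by kind, with the line of equal length. Most points lie below the line, and GL000220.1 and KI270733.1 are the 2 long sequences above it.

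Of the 8 sequences most covered in EV, 5 were unlocalized, 2 unplaced and 1 a patch. GL000225.1, an unlocalized sequence of chromosome 14, had 24 KD peaks over 97.4 kb and 19 EV peaks over 123 kb, a covered ratio of 0.791. KI270736.1, of chromosome 22, had 27 KD peaks over 42.5 kb and 21 EV peaks over 88.8 kb, a ratio of 0.479. GL000216.2, unplaced, had 17 KD peaks over 50.7 kb and 18 EV peaks over 86.1 kb, a ratio of 0.589. KI270715.1, of chromosome 2, had 15 KD peaks over 24.2 kb and 21 EV peaks over 83.9 kb, a ratio of 0.289. KI270747.1, unplaced, had 20 KD peaks over 25.4 kb and 18 EV peaks over 79.8 kb, a ratio of 0.318. GL000225.1, KI270736.1 and KI270747.1 thus had more peaks in KD than in EV while less of each was covered. The 10 most covered sequences of each list held 31% of its covered bases on these sequences in KD and 24.2% in EV.

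Among sequences with at least 10 EV peaks the extremes were far apart. The lowest ratio, 0.0843, was on KI270519.1, unplaced, with 3 KD peaks over 2 kb and 15 EV peaks over 23.7 kb. KI270846.1, an alternate locus, followed with 6 KD peaks over 4.84 kb and 37 EV peaks over 53.8 kb, a ratio of 0.0899. GL000252.2 and GL000253.2, both haplotypes of the major histocompatibility complex, had ratios of 0.104 and 0.113, and the patch KV880768.1 had 0.114. The highest ratio, 0.803, was on GL000214.1, unplaced, with 7 KD peaks over 23.6 kb and 10 EV peaks over 29.4 kb. GL383563.3, an alternate locus, had 0.794, and KI270744.1, unplaced, had 0.749. Of the lowest 5, 3 were alternate loci, and of the highest 5, 2 were unlocalized and 2 unplaced. The sequences covered in KD and not in EV, KI270793.1, KI270826.1, KQ759762.1 and KV766195.1, had a single KD peak each, with a −log10 p of 4.4 to 4.96. Of the sequences with EV peaks alone, KI270789.1 was covered most, with 6 peaks over 14.9 kb.

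The ribosomal RNA genes were the place where KD coverage exceeded EV coverage over a long stretch. These genes occur as repeats, each with a 45S transcript that is cut into 18S, 5.8S and 28S ribosomal RNA and a spacer before the next unit. GL000220.1, unplaced, carries RNA45SN5, and KI270733.1, unlocalized on chromosome 22, carries RNA45SN4. GL000220.1 had 7 KD peaks over 37.4 kb and 5 EV peaks over 28.8 kb, a covered ratio of 1.30. KI270733.1 had 6 KD peaks over 40.8 kb and 9 EV peaks over 26.9 kb, a ratio of 1.52. Together they were covered over 78.3 kb in KD and 55.7 kb in EV, a ratio of 1.41, against 0.439 for the other members. Peak numbers were 13 in KD and 14 in EV, a ratio of 0.929 with a wide interval of 0.402 to 2.13, and the 2 sequences differed in which list had more. The mean fold enrichment was 2.41 in KD and 1.94 in EV, both under the mean of the other members, 3.85 in KD and 3.45 in EV. At a fold of at least 3, peaks covered 24.3 kb of the transcripts and spacers in KD and 0 kb in EV. The KD length came from 2 peaks in the spacer of GL000220.1, at folds of 3.28 and 3.02. Within the unit on KI270733.1 no KD peak passed, and the highest KD fold was 2.72. In the third list peaks of a fold of at least 3 covered 31.4 kb of the transcripts and spacers. At any fold the third list covered 105 kb of the 2 whole sequences. Another 16 sequences with EV peaks were covered more in KD, by 17 to 2352 bp each.

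In KD and EV the spacer of the ribosomal unit was covered more than the transcript. Over both units the 45S transcript was covered by 39% in KD and 17.9% in EV, and the spacer by 83.2% in KD and 68.9% in EV. The spacer was counted up to the next annotated unit, over 34269 bp on GL000220.1 and 35366 bp on KI270733.1. On chromosome 21 it was 34539 bp after RNA45SN2 and 30878 bp after RNA45SN3. Whether the longer spacers take in the start of the next transcript was not tested. In the third list the transcript was covered by 81.9% and the spacer by 83.7%, though on KI270733.1 alone it was 84.7% of the transcript and 77.1% of the spacer. On GL000220.1 the 28S gene, RNA28SN5, at positions 113348 to 118417, was covered by 51.8% in KD and by 0% in EV. RNA18SN5, the 18S gene at 109078 to 110946, was covered by 19.3% in KD and by 0% in EV. On KI270733.1 the 18S gene, RNA18SN4, at 125931 to 127799, was covered by 85.6% in KD and 55.2% in EV. The 28S gene there, RNA28SN4, at 130204 to 135280, had no KD and no EV peak, and the 5.8S genes of both units had none either. The 2 copies thus differed within the transcript. The annotated units of chromosome 21, RNA45SN2 and RNA45SN3, also had more of both parts covered in KD over the pair, with the transcript covered by 20.9% in KD and 5.04% in EV and the spacer by 84.9% in KD and 68.5% in EV. The 28S gene RNA28SN2 there went the other way, covered by 0% in KD and 26.6% in EV. These copies are near-identical, so reads can be split or shared between them and the values of single copies are uncertain.

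**Figure D4:**
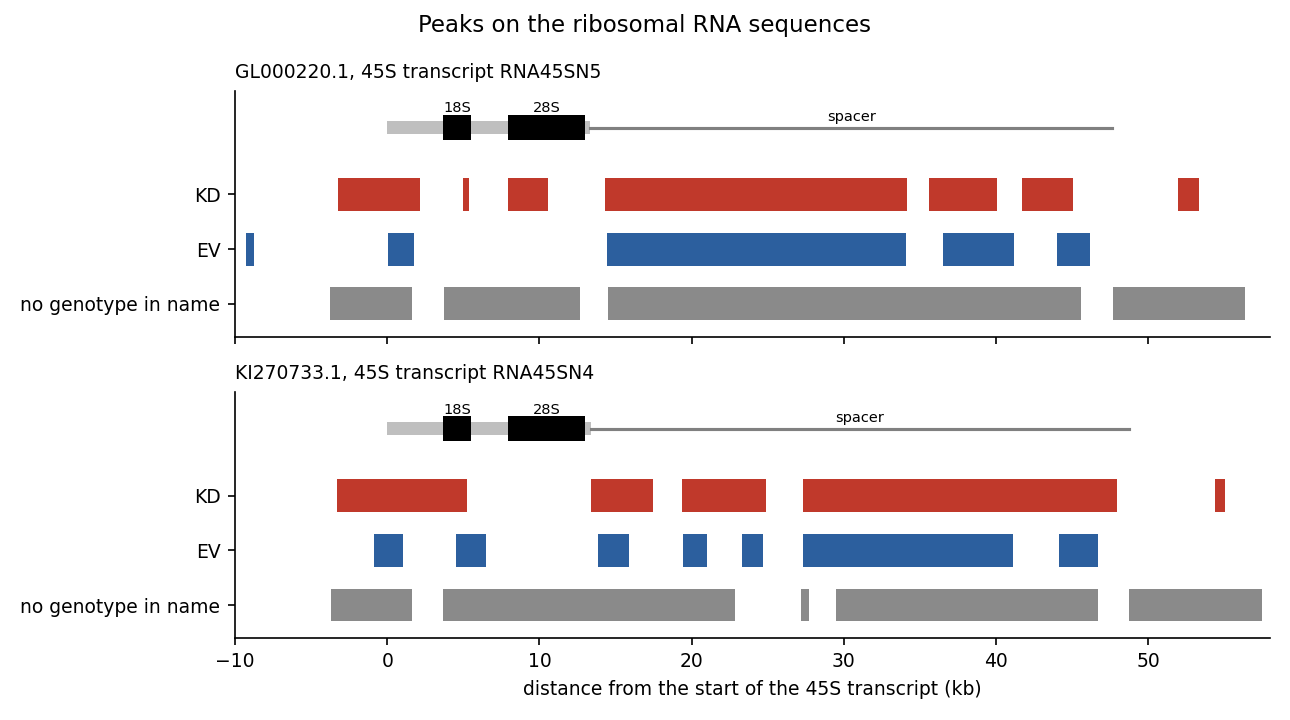
Peaks of the KD list (red), the EV list (blue) and the list without a genotype in its name (grey) on GL000220.1 and KI270733.1, by distance from the start of the 45S transcript (x axis, kb). The grey bar on top is the 45S transcript with the 18S and 28S genes in black, and the line is the spacer up to the next annotated unit. KD peaks cover 83.2% of the spacer and EV peaks 68.9%.

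Alternate haplotypes of 2 immune gene regions held fewer KD than EV peaks. These regions, the repeated peaks on patches and KI270438.1 were chosen after their values were seen. The major histocompatibility complex holds the HLA genes, which present peptides to T cells, and the assembly carries 7 alternate haplotypes of it. These had 30 KD peaks over 20.3 kb and 150 EV peaks over 136 kb, a peak ratio of 0.2 (0.13 to 0.298) and a covered ratio of 0.15, which was 0.258 at equal peak numbers. Of the EV peaks, 26 (17.3%, 11.6 to 24.4) had a KD partner. That share was 31.4% on all alternate loci and 37.7% over all sequences. On chromosome 6 the part from HLA-F to HLA-DPB1, positions 29723434 to 33089696, had 2 KD peaks over 0.921 kb and 29 EV peaks over 19.4 kb. This part is shorter than the haplotypes, since EV peaks on GL000252.2 alone lay between 46005 and 4585213. The counts on chromosome 6 and on the haplotypes are thus not like for like. The third list had 1 peak on the 7 haplotypes. The leukocyte receptor complex holds the LILR and KIR receptor genes. The 9 alternate loci assigned to it here had 37 KD peaks over 56.4 kb and 105 EV peaks over 156 kb. Their peak ratio was 0.352 (0.235 to 0.517), near that of all alternate loci. Of their EV peaks, 37 (35.2%, 26.2 to 45.2) had a KD partner. On chromosome 19 the part from LILRB3 to FCAR had 3 KD and 7 EV peaks, a ratio of 0.429 (0.0715 to 1.88). Haplotypes of a region share sequence, so their peaks are not independent of each other.

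The strongest call of every list lay on an unplaced sequence. On KI270438.1 the KD peak at 108723 to 112440 spanned 3718 bp, at a fold of 6.43 and −log10 p of 1470. The EV peak at 108721 to 112434 spanned 3714 bp, at a fold of 6.15 and −log10 p of 3116. Each fold and −log10 p ranks peaks within its own list only. The next strongest call lay on chromosome 1 in both lists, at 728 in KD and 2204 in EV. The third list had its strongest call in the same place, at 109125 to 112448, with a −log10 p of 1333. The same place thus led all 3 lists. KI270744.1, also unplaced, held the highest fold among members of the KD list, 10.2, at 11042 to 14017, over which the EV list had a peak with a fold of 8.04.

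Several of the widest peaks were shared. On the patch KZ208906.1 the KD peak at 147734 to 223686 spanned 75953 bp and the EV peak at 147728 to 223729 spanned 76002 bp. The third list had a peak of 76282 bp there. On KI270754.1, unplaced, the KD peak spanned 26127 bp and the EV peak 26314 bp. On GL000225.1 a KD peak of 24851 bp, at 110240 to 135090, overlapped an EV peak of 28596 bp, at 106477 to 135072. The blocks on KZ208906.1 and KI270754.1 were thus of nearly the same width in KD and EV, where the covered ratio over all members was 0.455. The EV peak of 36641 bp on KQ983258.1, in contrast, was overlapped by 8 separate KD peaks. The strongest KD peak without an EV partner was 537 bp wide on KI270774.1, with a −log10 p of 9.97. The strongest EV peak without a KD partner was 1753 bp wide on GL000251.2, a haplotype of the major histocompatibility complex, with a −log10 p of 19.7.

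On the patches KQ983257.1 and KQ983258.1 a stretch with many separate peaks in KD was covered by fewer peaks in EV. On KQ983257.1 a stretch of 41.4 kb was a single peak in the third list. It held 13 KD peaks covering 56.3% and 2 EV peaks, of 10864 and 27601 bp, covering 91.8%. The KD peaks stood a median of 3.32 kb apart, with 9 of 12 spacings between 3 and 3.6 kb and a range of 2.54 to 3.62 kb. On KQ983258.1 a stretch of 44.7 kb held 10 KD peaks covering 71.2% and 3 EV peaks covering 92.5%. The EV peaks there were 3143 to 36641 bp wide. There the median spacing of the KD peaks was 3.34 kb, with 5 of 9 spacings between 3 and 3.6 kb, a range of 2.58 to 8.37 kb and a widest KD peak of 11685 bp. The spacing was more even on KQ983257.1. The stretches begin at positions 158349 and 158336 of their patches, and the 2 patches are not taken as independent.

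**Figure D5:**
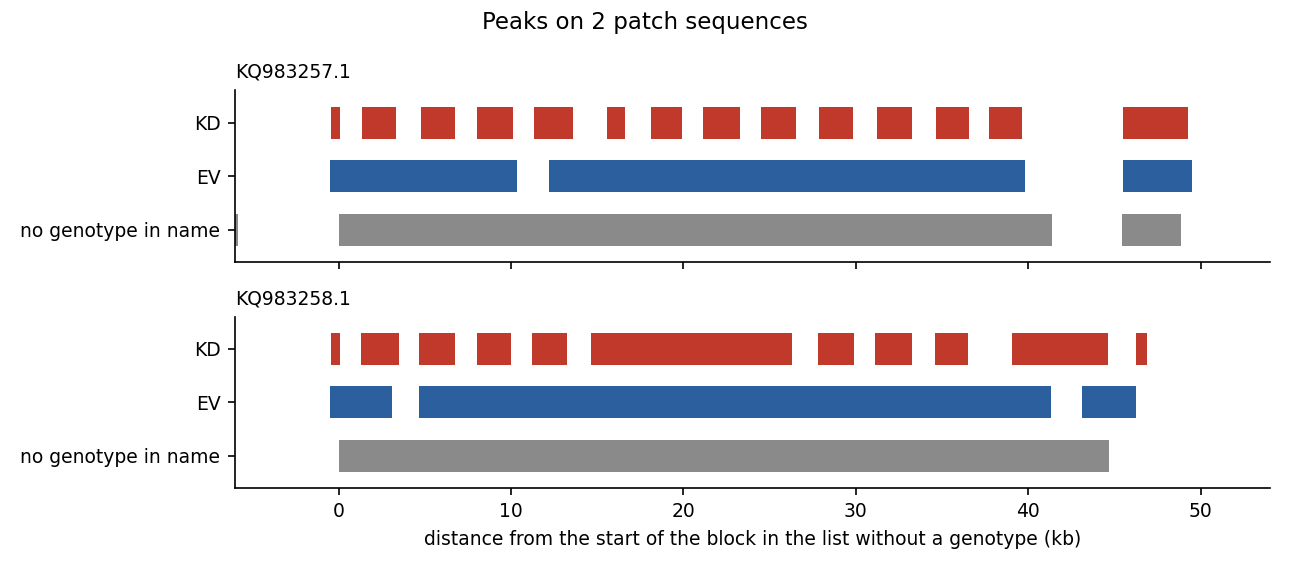
Peaks of the KD list (red), the EV list (blue) and the list without a genotype in its name (grey) on the patches KQ983257.1 and KQ983258.1, by distance from the start of the single grey block (x axis, kb). The KD peaks recur with median spacings of 3.32 and 3.34 kb, where EV has 2 and 3 peaks, the widest of 27601 and 36641 bp.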

How the data were processed

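H3K9me3 ChIP-seq peaks of HEK293T cells were taken from 3 deposited lists of broad peaks. The submitters' processing notes name Bowtie2, MACS2 and the build GRCh38. Versions, calling options, control of each list, filters and pooling are not stated in the sources at hand. Per the deposited columns, the fold enrichment (a ratio) and −log10 p of each peak were computed by the authors, and the KD and EV lists hold no −log10 q under 1.00 in the deposited values. Both describe peaks of their own list, and no difference is read from mean folds printed side by side. An exception is the minimum fold of 3, applied to both lists although their scaling is not known. The names of 2 lists carry KD and EV, and the remaining list was given to no sample. Depth is unknown.

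Sequence names were taken from the lists, with positions counted from 1. The kind and chromosome of a sequence were assigned from the GRCh38 accession series, as background knowledge, and no assembly report was used. The RefSeq gene table of GRCh38.p14 gives the ribosomal RNA genes their positions but names no unplaced sequence, so RNA45SN5 and RNA45SN4 were put on GL000220.1 and KI270733.1 from background knowledge. Other genes on these sequences could not be placed and are not named. Overlaps, at 1 bp or more, and covered lengths were computed in Python 3.11.15 with numpy 2.4.6 and pandas 2.3.3, tested on simulated data and checked against bedtools 2.31.1. Intervals came from scipy 1.17.1 and plots from matplotlib 3.10.9.

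Sequences named are the 8 most covered in EV, the 5 most covered in KD, all with KD peaks alone, the 5 lowest and 5 highest KD/EV ratios among those with at least 10 EV peaks, and the 3 most covered with EV peaks alone. Peaks named are the 3 widest and the 3 of highest fold in each list and the strongest without a partner. The text gives a selection. The members and lists were chosen with earlier results of these data known. Alternatives were stricter thresholds, equal peak numbers, merging of peaks within 3 kb, stricter overlap and other sets of sequences.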

Additional observations from a re-analysis of the deposited data

Results flagged for a closer look

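The list without a genotype in its name belongs to no group of the study, and it held peaks on 12 sequences other than chromosomes where neither KD nor EV had any. On these 12 sequences it had 31 peaks over 34.2 kb.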

How the results depend on the processing

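No paired analysis was possible because each group has 1 library and the labels give no replicate numbers to pair. Of 70 values under alternatives for 12 results, 40 stayed within their interval or a factor of 1.1 and 30 moved. A change of direction was looked for only in the covered ratios of the ribosomal sequences and the major histocompatibility complex haplotypes. Of their values 0 changed direction. The KD/EV ratio of peak number was 0.648 at a fold enrichment of at least 3, 0.893 when EV was limited to its strongest 13455 peaks, 0.652 for unlocalized, 0.617 for unplaced, 0.636 for both and 0.384 for alternate loci and patches. The ratio of covered length was 0.573 at that fold, 0.65 at equal peak numbers, 0.54 for unplaced, 0.503 for unlocalized and unplaced and 0.407 for alternate loci and patches. On chromosomes equal peak numbers gave ratios of 1.01 for peak number and 0.563 for covered length. The share of EV peaks with a KD partner was 24.2% at 50% reciprocal overlap, 57.8% at equal peak numbers, 49.8% for unlocalized, 52.1% for unplaced, 50.9% for both and 30.7% for alternate loci and patches. The share of KD peaks with an EV partner was 51.1% at reciprocal overlap, 69.6% at the fold minimum, 74% at equal peak numbers and 92% for unlocalized sequences. At a −log10 q of at least 2 the median width was 1354 bp in KD and 1399 bp in EV. The share of EV peaks on these sequences was then 6.79%, and 6.9% at the fold minimum. The ratio on the ribosomal sequences was 37.7 at a fold of at least 3, where the EV coverage that passes it, 0.68 kb, lies outside the transcripts and spacers, and that on the major histocompatibility complex haplotypes ran between 0.121 and 0.258. Alternate loci and patches alone, leaving out the ribosomal sequences or KZ208906.1, and the alternatives for those 2 results were chosen after seeing the data. Apart from the reasons given, the cause was not tested.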

Other observations

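On 17 sequences each of the 3 lists had exactly 1 peak, a group chosen after the values were seen. Of these, 14 were unplaced and 3 were alternate loci. The KD/EV ratio of peak width on them ran between 0.618 and 1.19 with a median of 0.956, and it was within 10% of equality on 11. By its rule the group leaves out sequences without a KD peak, and only 40 of the 85 sequences with 1 EV peak had one. Sequence lengths were not at hand, so whether they limit these widths was not tested. The ratio of KD to EV covered length was lower on sequences with more EV peaks, where the EV list itself set the groups. It was 0.602 on the 85 sequences with 1 EV peak (105 kb in KD, 174 kb in EV), 0.514 on the 158 with 2 to 9 (688 kb in KD, 1337 kb in EV) and 0.396 on the 55 with 10 or more (726 kb in KD, 1835 kb in EV). Patches did not follow this order, with 0.3, 0.569 and 0.343 in the same groups.

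Of the KD peaks on these sequences, 44.5% were overlapped by both other lists and 7.45% by neither, where the shares over all sequences were 44.1% and 10.6%. Of the EV peaks, 18.8% were overlapped by both other lists and 54.9% by neither, where the shares over all sequences were 18.1% and 55.5%.

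Unlocalized sequences differed by their chromosome. The 8 of chromosome 14 were covered over 153 kb in KD and 246 kb in EV, a ratio of 0.622, the highest. The 2 of chromosome 2 were covered over 45.8 kb in KD and 155 kb in EV, a ratio of 0.295. Chromosomes 1 and 22 lay between, at 0.509 and 0.514. Lower ratios rested on 1 sequence each, with 0.197 for chromosome 5 and 0 for chromosomes 3 and 11. On chromosome 14, GL000225.1 alone held 97.4 kb in KD and 123 kb in EV. Chromosome 22 includes the ribosomal sequence KI270733.1, with 40.8 kb in KD and 26.9 kb in EV. Ratios without these sequences were not computed, and the differences between chromosomes were not tested.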
